A study of Mus musculus with 42 samples.

Results

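The genes of glucose entry were followed in mouse liver, in white fat (WAT, white adipose tissue) and in brown fat (BAT): the facilitative glucose transporters *Slc2a1*, *Slc2a2*, *Slc2a3* and *Slc2a4*, the hexokinases *Hk1*, *Hk2* and *Hk3*, and *Gckr*. Members were chosen by name, and every probe set annotated to one of them alone was used. This gave 16 probe sets for 8 genes, out of 45037 probe sets and 18193 genes measured, and 1 further probe set that *Hk1* shares with other genes was left out. The animals were male ddY mice, 5 weeks old on arrival and acclimated for 1 week, and all ate freely until food was taken away on the last morning. By feeding tube, 7 mice received water and 7 received 1.8% VAAM, a mixture of amino acids made to resemble the saliva of hornet larvae. The dose was 37.5 μL per g of body weight once a day, 5 times, and tissue was taken 4 h after the last dose. Each mouse gave 1 array per tissue, 42 arrays in all, and arrays of a casein-like mixture were not analysed here.

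Glucose crosses the cell membrane down its gradient through GLUT proteins, and a hexokinase then traps it as glucose 6-phosphate, the common entry to glycolysis, glycogen and the pentose phosphate pathway. *Slc2a2* (GLUT2) is the low-affinity transporter of liver and pancreatic islets, and *Slc2a4* (GLUT4) is the transporter that insulin brings to the surface of fat and muscle cells. *Slc2a1* (GLUT1) serves basal uptake in many cells, and *Slc2a3* (GLUT3) is a high-affinity transporter known from neurons, sperm and blood cells. *Hk1* is the widespread hexokinase, *Hk2* the form of insulin-responsive tissues, and *Hk3* a form known from myeloid cells. *Gckr* encodes the protein that holds the low-affinity hexokinase of the hepatocyte in the nucleus when glucose is low.

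RefSeq promoters (build GRCm38.p6) matched 6 of the 8 genes, all but *Slc2a3* and *Slc2a4*. Those of 3 are shown because, of these 6, their levels differed most between tissues: *Slc2a2* and *Gckr* stood far higher in liver, and *Hk2* far higher in both fat tissues. Each is the stretch of 250 bases before the transcription start, 5′ to 3′ on the strand of the gene. Capitals mark matches, on either strand, to 6 short motifs, and no matches overlapped. They were TATAAA, where many promoters bind the general transcription machinery, CCAAT, bound by NF-Y, GGGCGG, bound by Sp1, CACGTG, the E box of basic helix-loop-helix factors, GTTAAT, a part of the HNF1 site of liver genes, and AGGTCA, the unit from which nuclear receptor sites are built.
*Slc2a2*, chr3:28697653-28697902, plus strand: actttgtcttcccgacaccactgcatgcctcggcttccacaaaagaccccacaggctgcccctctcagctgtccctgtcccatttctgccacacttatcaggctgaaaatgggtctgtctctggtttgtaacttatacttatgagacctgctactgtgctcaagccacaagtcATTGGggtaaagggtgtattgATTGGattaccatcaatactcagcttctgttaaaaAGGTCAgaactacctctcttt
*Gckr*, chr5:31297313-31297562, plus strand: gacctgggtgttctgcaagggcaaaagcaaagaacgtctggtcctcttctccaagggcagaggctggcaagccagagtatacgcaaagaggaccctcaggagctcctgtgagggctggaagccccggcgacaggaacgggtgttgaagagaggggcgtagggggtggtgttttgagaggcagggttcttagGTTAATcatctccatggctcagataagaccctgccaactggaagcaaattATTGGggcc
*Hk2*, chr6:82774455-82774704, minus strand: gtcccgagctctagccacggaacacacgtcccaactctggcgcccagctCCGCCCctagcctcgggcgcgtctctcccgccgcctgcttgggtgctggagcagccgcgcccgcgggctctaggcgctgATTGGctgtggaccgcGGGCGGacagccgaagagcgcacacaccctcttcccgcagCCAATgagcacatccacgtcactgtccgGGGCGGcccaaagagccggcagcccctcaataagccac
The *Slc2a2* stretch held CCAAT at 2 places on the opposite strand and AGGTCA once, beginning 21 bases before the start. The *Gckr* stretch held GTTAAT once, beginning 59 bases before the start, and CCAAT once. The *Hk2* stretch held GGGCGG at 3 places and CCAAT at 2, and its G and C content was 69.6% against 47.2% for *Slc2a2* and a median of 52.4% over 32851 promoters. Of all promoters, 33.8% held CCAAT, 32.7% GGGCGG, 14% AGGTCA, 12.4% TATAAA, 6.43% GTTAAT and 6.02% CACGTG in the same window. These matches are letters in a sequence and were not tested as binding sites.

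Values are read here as log2, the base being unstated, and 2 features set what can be compared. The deposited values of the 14 arrays of a tissue hardly differed. The SD of a member probe set among the 7 mice of a group ran from 9.43e-07 to 0.000645 log2. A deposited level is thus the same in every mouse of a tissue to about 2 decimals. The summary of the probes shrinks differences between arrays, so this does not measure how alike the mice were. Array medians ran from 6.72943 to 6.72967 in liver, 6.90756 to 6.91328 in WAT and 6.77386 to 6.77539 in BAT, with no overlap between tissues. The arrays of each tissue were therefore taken as summarized apart, which the study does not state. Levels of a probe set in different tissues are therefore set side by side without a test, and levels of different probe sets are not compared. A percentile of level among all probe sets of a tissue is given only to mark low signals. The labelled tissues carried their markers, as albumin (*Alb*) read 15 in liver, adiponectin (*Adipoq*) 14.4 in WAT and 14 in BAT, and *Ucp1* 14.2 in BAT. Of the other brown fat markers, *Cidea*, *Cox7a1*, *Cox8b* and *Zic1* were higher in BAT than in liver. *Dio2* (7 in BAT, 7.03 in liver) and *Elovl3* (8.52 and 9.53) were not. WAT also held genes of the epididymis such as *Lcn8* (9.66, against 6.42 in liver), and BAT genes of skeletal muscle such as *Acta1* (10.4, against 6.76 in liver). Of the other epididymal genes, *Lcn9*, *Cst11*, *Rnase10* and *Adam7* were higher in WAT than in liver. *Lcn5* (7.28 in WAT, 7.49 in liver) and *Defb15* (6.5 and 6.57) were not. By their scores on the first 3 principal components, VAAM mouse 6 stood apart in liver, VAAM mouse 1 in WAT, and VAAM mice 3 and 5 in BAT.

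Among the transporters, *Slc2a2* marked the liver and *Slc2a4* the fat tissues. In water mice the level of *Slc2a2* was 12.3 log2 in liver, 6.06 in WAT and 5.95 in BAT, a liver level higher by 6.24 than that of WAT and by 6.35 than that of BAT. Of all probe sets, 0.246% lay as far from 0 in liver minus WAT and 0.233% in liver minus BAT. The first *Slc2a4* probe set (1415958_at) ran in the other order, with 7.09 in liver, 9.55 in WAT and 10.99 in BAT. Its second probe set (1415959_at) gave 6.63, 8.46 and 9.28 in the same order of tissues. Both *Slc2a4* probe sets thus had their lowest level in liver and their highest in BAT, with BAT above WAT by 1.45 and 0.82 log2. All listed markers of skeletal muscle were also higher in BAT than in WAT, such as *Acta1* (10.4 and 7.18). The part of muscle in the BAT level of *Slc2a4* was not tested.

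*Slc2a3* was a gene of WAT by 2 of its 4 probe sets. Probe set 1437052_s_at read 9.04 in WAT, 6.26 in liver and 6.46 in BAT, and probe set 1455898_x_at read 8.39, 6.56 and 6.8. The other 2 stayed between 5.94 and 6.4 in every tissue. Of these, 1427770_a_at was lowest in WAT (6.4 in liver, 5.94 in WAT and 6.16 in BAT), and 1421924_at lay nearly level (6.07, 6.15 and 6.11). For 1437052_s_at, BAT minus WAT was -2.58 log2, and 0.386% of all probe sets differed as far between these tissues. GLUT3 is known from sperm and blood cells, and WAT held epididymal genes. The part of other cells in the WAT level of *Slc2a3* was not tested, and here as in all bulk tissue, more cells of a type and more RNA per cell cannot be told apart.

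*Slc2a1*, the basal transporter, differed less. Its best measured probe set (1434773_a_at) read 8.52 in WAT, 8.02 in liver and 7.4 in BAT, and the other 2 read 7.49 and 7.83 in WAT, 7.54 and 7.22 in liver, and 7.12 and 7.02 in BAT. All 3 were lowest in BAT, and the order of WAT and liver turned with the probe set. BAT minus WAT was -1.12, -0.37 and -0.81 log2 in the 3 probe sets.

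**Figure D1:**
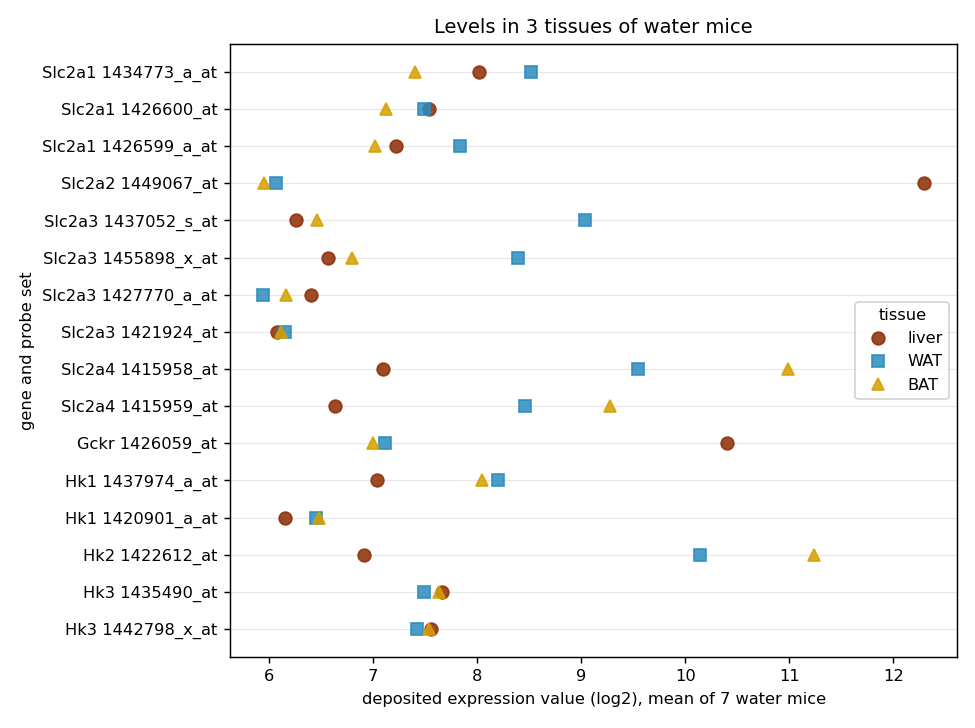
Mean deposited expression value (log2, horizontal axis) of each probe set (vertical axis) in the 7 water mice, with a circle for liver, a square for WAT and a triangle for BAT. *Slc2a2* (12.3) and *Gckr* (10.4) lie far to the right in liver, *Slc2a4* and *Hk2* are lowest in liver and highest in BAT, 2 *Slc2a3* probe sets are highest in WAT, and *Hk3* lies at about 7.5 in every tissue. The SD of the deposited values over mice, which the summary shrinks, is smaller than the symbols.

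Of the hexokinases, *Hk2*, the insulin-responsive form, had a level of 6.91 in liver, 10.14 in WAT and 11.24 in BAT, with liver minus WAT at -3.23 and liver minus BAT at -4.32 log2. This is the order of *Slc2a4*, and the part of skeletal muscle in the BAT level of *Hk2* was not tested either. *Hk1* was more even. Its probe set 1437974_a_at read 7.04 in liver, 8.2 in WAT and 8.05 in BAT, and 1420901_a_at read 6.15, 6.45 and 6.48. *Hk3* gave nearly the same value everywhere, with 7.66 in liver, 7.49 in WAT and 7.63 in BAT for 1435490_at and 7.56, 7.42 and 7.54 for 1442798_x_at. *Gckr* followed *Slc2a2* rather than the hexokinases, with 10.4 in liver, 7.11 in WAT and 7 in BAT, and 1.4% of all probe sets differed as far between liver and WAT.

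Counted over the 16 probe sets, 2 stood more than 1 log2 higher in liver than in WAT (*Slc2a2* and *Gckr*), where 3.64% of all probe sets did, and 6 more than 1 log2 lower, where 9.62% of all did. Between liver and BAT, 2 of 16 were higher (4.55% of all) and 4 lower (4.98% of all). Between BAT and WAT, 2 were higher in BAT (*Slc2a4* 1415958_at and *Hk2*, 1.78% of all) and 3 higher in WAT (*Slc2a1* 1434773_a_at and 2 of *Slc2a3*, 5.26% of all). The members were picked with such tissue differences known, so these counts are a description. With each tissue centred on its median or all water arrays brought to 1 distribution, no member past 1 log2 changed direction, *Hk1* 1437974_a_at came to -0.98 and -0.81 for liver minus WAT and -0.97 and -1 for liver minus BAT, and *Slc2a1* 1434773_a_at came to -0.98 and -0.81 for BAT minus WAT. *Slc2a4* 1415959_at came to 0.95 and 1.16 for BAT minus WAT. The median of all probe sets was -0.12 for liver minus WAT, -0.04 for liver minus BAT and -0.09 for BAT minus WAT before such scaling.

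Genes around the members were taken from 5 lists of 88 genes, of which 74 were measured. The lists were other sugar transporters, GLUT4 traffic, sugar kinases and hexose phosphate use, glycolysis, and regulators. Past 1 log2, 9 of 74 were higher and 22 lower in liver than in WAT, 9 higher and 23 lower in liver than in BAT, and 7 higher and 5 lower in BAT than in WAT. Of all probe sets, 3.64% were higher and 9.62% lower in the first pair, 4.55% and 4.98% in the second, and 1.78% and 5.26% in the third. Each list gene stands for its probe set of highest mean, whereas all probe sets include many at low levels. Among probe sets above the median level, the shares were 6.81% and 18%, 8.54% and 9.72%, and 3.43% and 9.78%. The lists were written with earlier results of these data known, so the counts are a description. Of 15 genes of GLUT4 traffic, none was higher in liver than in WAT by that margin and 7 were lower, with a median of -0.95 log2. Of 16 genes of glycolysis below hexose phosphate, 8 were lower in liver than in BAT and 1 was higher, and 4 were higher in BAT than in WAT and 0 lower. *Hnf4a*, a master regulator of the hepatocyte, had the largest liver excess, with 11.85 log2 in liver, 7.28 in WAT and 6.96 in BAT. *Khk*, which phosphorylates fructose, read 11.51 in liver, 8.12 in WAT and 7.67 in BAT. *Pparg*, the master regulator of fat cells, read 6.68 in liver, 10.48 in WAT and 11.17 in BAT, and *Pfkfb3*, which makes the activator of phosphofructokinase, read 6.71 in liver and 11 in WAT. *Pkm*, the pyruvate kinase of tissues other than liver, read 6.72 in liver and 10.93 in BAT. BAT also exceeded WAT by 2.33 in *Pkm* and 2.11 in *Pfkl*, a phosphofructokinase, and lay below WAT in *Slc2a13*, a myo-inositol transporter (-1.61), and *Stxbp3*, a syntaxin-binding protein of GLUT4 traffic (-1.77).

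VAAM against water was the comparison of the study. Within a tissue the values deviate by a scale that the summary sets for each probe set, so a difference is given in units of the pooled SD within groups (± SE) and not as a fold change. No probe set of the array passed limma at an adjusted p of 0.05 in liver, WAT or BAT (0% of 45037 each), and none of the 16 member probe sets did. The smallest adjusted p of a member was 0.502 in liver, 1 in WAT and 0.946 in BAT. At an unadjusted p of 0.05, 1 of 16 members passed in liver (9.09% of all probe sets), 0 in WAT (3.76%) and 0 in BAT (5.1%). Rank products, the test named in the methods of the study, called 3.78% of all probe sets in liver, 3.28% in WAT and 4.04% in BAT at a false discovery rate of 0.05, and called no member in any tissue.

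The member differences spread around 0. In liver 5 of 16 probe sets were higher on average in VAAM mice and 11 lower, with a median of -0.211 SD, beside a median of -0.0539 over all probe sets, of which 46.7% were higher. In WAT 7 were higher and 9 lower, with a median of -0.306 (all probe sets -0.00789). In BAT 8 were higher and 8 lower, with a median of 0.0444 (all probe sets -0.0187). The signs depend on the scaling. Quantile normalization of the 14 arrays of a tissue left no difference in 1768 probe sets of liver, 138 of WAT and 503 of BAT. Of the rest, 74.6%, 96.1% and 88.8% had a lower VAAM mean, and so had 12 of 15 members in liver, 16 of 16 in WAT and 12 of 16 in BAT.

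**Figure D2:**
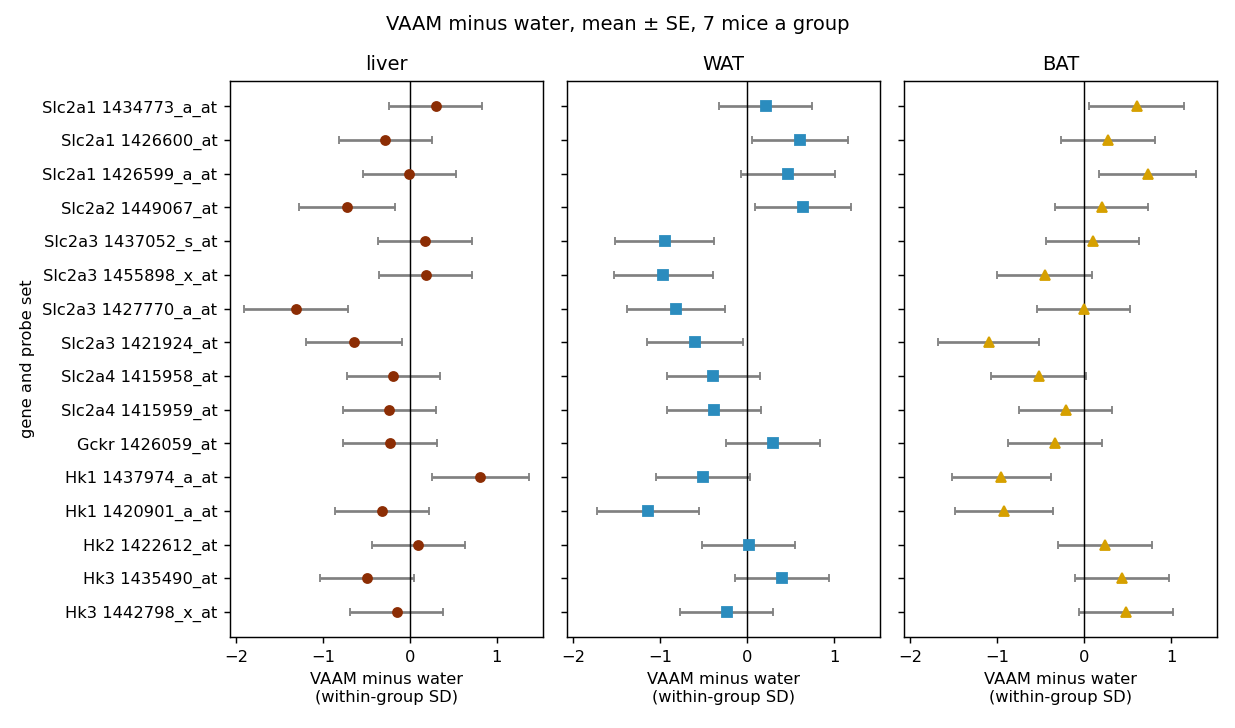
VAAM minus water in pooled within-group SD (horizontal axis, mean ± SE, 7 mice a group) for each probe set (vertical axis) in liver, WAT and BAT. Most error bars cross 0. All 4 *Slc2a3* probe sets lie to the left in WAT (-0.599 to -0.963), both *Hk1* probe sets lie to the left in WAT and BAT, and the lowest value of all is *Slc2a3* 1427770_a_at in liver (-1.31).

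In WAT the *Slc2a3* transporter had a lower mean in VAAM mice by all 4 of its probe sets. For 1437052_s_at, measured from the water mean in SD, water mice ran from -1.81 over a median of 0.326 to 1.13, and VAAM mice from -2.56 over -1.05 to 0.249. No VAAM mouse exceeded the water median, and the groups overlapped over most of their ranges. The difference was -0.95 ± 0.569 SD (two-sided exact permutation p 0.101). Probe set 1455898_x_at gave -0.963 ± 0.57 (exact p 0.0967), and these 2 probe sets correlated at r = 0.96 over the 14 WAT arrays, so they measured nearly the same thing. Without water mouse 7, at -1.81 in the first, both came to -1.45 SD (limma unadjusted p 0.0212 and 0.021, adjusted 1). That mouse was picked on these same values, so these p values are not a fair test. With each array left out in turn, the 2 differences ran from -1.45 to -0.754 and from -1.45 to -0.768 SD. Probe sets 1427770_a_at (-0.818 ± 0.56, exact p 0.143) and 1421924_at (-0.599 ± 0.548, exact p 0.287) sat at a low level in WAT and did not follow the first pair (r from -0.39 to -0.10). Of the VAAM mice, 0, 0, 0 and 1 lay above the water median in the 4 probe sets. All 4 stayed lower after quantile normalization (-0.363 to -0.558), where the WAT members all did. None passed limma (adjusted p 1).

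In other tissues *Slc2a3* gave no single picture. In liver 1427770_a_at had the largest member difference, at a low level (percentile 30.7). Water mice ran from -2.11 to 1.06 (median 0.226) and VAAM mice from -2.71 to -0.0306 (median -1.13). All 7 VAAM mice lay below the water median, and the difference was -1.31 ± 0.597 SD (exact permutation p 0.0355, limma adjusted p 0.502). The 2 probe sets that carried the gene's WAT level gave 0.174 and 0.182 in liver, so the probe sets of the gene disagreed. In BAT 1421924_at sat at a low level (percentile 13.2) and gave -1.1 ± 0.58 (exact p 0.0629). Probe set 1455898_x_at gave -0.458 there, and the other 2 stood at 0.0951 and -0.00626.

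**Figure D3:**
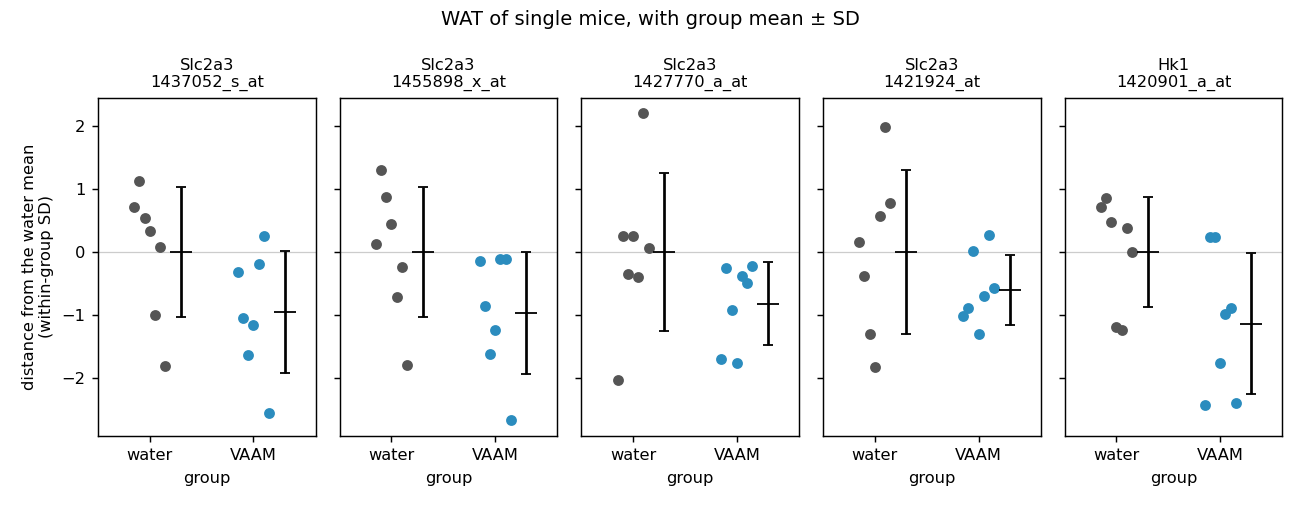
WAT of single mice for the 4 *Slc2a3* probe sets and *Hk1* 1420901_a_at, as distance from the water mean in within-group SD (vertical axis), with water in grey and VAAM in blue (horizontal axis) and the group mean ± SD as a bar. In the first 2 panels the VAAM points run down to -2.56 and -2.67, 1 water point lies at -1.81 and -1.79, and the groups overlap in all 5 panels.

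*Slc2a1* had a higher WAT mean in VAAM mice by its 3 probe sets (0.212, 0.607 and 0.469 SD), and this turned to -0.453, -0.55 and -0.505 after quantile normalization. In each probe set 6 of 7 VAAM mice lay above the water median. VAAM mouse 7 was the exception, at -2.58, -1.77 and -2.49, while the other VAAM mice lay between 0.0832 and 2.08. For 1426599_a_at, water mice ran from -0.632 to 0.434 and the 6 other VAAM mice from 0.528 to 1.79, so that only mouse 7 made the groups overlap. The exact permutation p values were 0.738, 0.279 and 0.448. Without mouse 7 the differences were 1.32, 1.43 and 2.41 SD (limma unadjusted p 0.0332, 0.027 and 0.000901, adjusted 0.997 for each). These 3 probe sets of 1 gene were the members of 16 past an unadjusted p of 0.05, where 4.07% of all probe sets were. Mouse 7 was picked on these same values, so these p values are not a fair test. With each array left out in turn, the differences ran from 0.0334 to 1.32, from 0.39 to 1.43 and from 0.262 to 2.41 SD. In BAT the 3 means were higher too (0.601, 0.271 and 0.728, exact p 0.198 or more), the first 2 of which came to -0.153 and -0.159 after quantile normalization. In liver they were 0.296, -0.283 and -0.00791, with no common sign, and after quantile normalization -0.166, -0.604 and -1.2 (limma unadjusted p 0.754, 0.267 and 0.0397, adjusted 0.972, 0.782 and 0.669).

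The liver transporter *Slc2a2* differed by -0.722 ± 0.554 SD in liver (exact permutation p 0.205). Water mice ran from -1.07 to 0.749 (median 0.162) and VAAM mice from -2.53 to 1.18 (median -0.647), and 2 of 7 VAAM mice lay above the water median. Quantile normalization gave the 14 liver arrays 1 common value and so no difference. In WAT and BAT, where its level was low, the gene gave 0.647 and 0.198, which came to -0.58 and -0.461 after quantile normalization. The insulin-responsive *Slc2a4* was lower on average in all 3 tissues by both probe sets, but by less than 1 SE everywhere: -0.192 and -0.239 in liver, -0.387 and -0.378 in WAT, and -0.523 and -0.215 in BAT. After quantile normalization the liver values were -0.852 for 1415958_at (limma unadjusted p 0.126, adjusted 0.679) and 0.1 for 1415959_at. The liver value of 1415959_at thus changed sign, and its BAT value to 0.104 without VAAM mice 3 and 5. In WAT 1415958_at ran from -1.53 to 1.21 in water mice and from -2.34 to 0.986 in VAAM mice, 2 ranges that covered each other.

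Of the hexokinases, *Hk1* had the largest differences. In WAT 1420901_a_at ran from -1.23 to 0.849 in water mice (median 0.382) and from -2.42 to 0.238 in VAAM mice (median -0.975). No VAAM mouse lay above the water median, and the difference was -1.14 ± 0.583 SD (exact permutation p 0.0594). The level of 1420901_a_at was low, at percentile 28.7 of WAT and 33.8 of BAT. The other *Hk1* probe set, with the higher level, gave -0.509 ± 0.545 in WAT (exact p 0.387). In BAT both probe sets gave lower means, -0.956 ± 0.569 for 1437974_a_at (exact p 0.0991) and -0.925 ± 0.567 for 1420901_a_at (exact p 0.11), and they correlated at 0.75 over the BAT arrays. After quantile normalization the 2 probe sets stayed lower in WAT (-0.369 and -0.759) and in BAT (-0.541 and -0.214). So were 96.1% and 88.8% of all probe sets that differed there, so the sign after this step says little. For 1437974_a_at the water mice of BAT ran from -1.12 to 0.818 and the VAAM mice from -2.67 to 0.63. VAAM mice 3 and 5, whose BAT arrays stand apart, lay highest of the VAAM mice in both probe sets. Without these 2 arrays the differences were -1.94 and -2.51 SD, with limma unadjusted p 0.00613 and 0.00136 and adjusted p 0.97 and 0.896. In liver 1437974_a_at gave 0.809 and 1420901_a_at gave -0.323, and the first turned to -0.543 after quantile normalization.

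*Hk2* did not move by more than its SE in any tissue, with 0.0934 ± 0.535 in liver, 0.018 ± 0.535 in WAT and 0.238 ± 0.537 in BAT. An interval of 2 SE on either side of such a value spans more than 1 SD each way, so these data do not tell no change from a change of that size. *Hk3* was decided by 1 mouse in BAT. There 1435490_at lay between -0.711 and 0.92 in water mice, and VAAM mouse 3 reached 3.16 while the other VAAM mice lay between -0.674 and 0.731. Its difference of 0.433 ± 0.542 (exact permutation p 0.529) became -0.0395 without VAAM mouse 3. It was -0.336 without VAAM mice 3 and 5 and -0.416 after quantile normalization. The second *Hk3* probe set put VAAM mouse 3 at 3.35 and did not turn negative. Its difference of 0.48 ± 0.543 became 0.0958 without VAAM mice 3 and 5 and 0.108 after quantile normalization. With each array left out in turn, its lowest value was 0.00126. *Gckr* gave -0.23 in liver, its main tissue, with water mice from -1.37 to 1.32 and VAAM mice from -1.42 to 1.25 (exact p 0.67), and 0.3 in WAT and -0.335 in BAT. After quantile normalization these were -1.02 in liver (limma unadjusted p 0.0717, adjusted 0.669), -0.539 in WAT and 0.0118 in BAT.

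Whether the response to VAAM differed between tissues was tested on values scaled to unit SD in each tissue. The fit took the 42 arrays as independent, although each mouse gave 1 array per tissue. Over all probe sets, 0.249% passed limma for liver minus WAT, 0.153% for liver minus BAT and 0.02% for BAT minus WAT, and no member did. The smallest adjusted p values of members were 0.548 for *Slc2a2* in liver minus WAT (-1.37 SD), 0.448 for *Hk1* in liver minus BAT (1.76 SD) and 1 in BAT minus WAT. With treatment and mouse number as a block across tissues, 239, 128 and 19 probe sets passed in place of 112, 69 and 9, and no member did.

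Probe sets of a gene did not always tell the same story. Over deviations from the group means on the 42 arrays, the 3 *Slc2a1* probe sets correlated at 0.73 to 0.88, those of *Slc2a4* at 0.69 (0.95 in WAT and 0.26 in liver, where the level is low), those of *Hk3* at 0.67 and those of *Hk1* at 0.23. The genes whose deviations were most like a member over the 42 arrays are given as a description, without a test. For *Hk3* they were *Irf7* (r = 0.84), *Btk* (0.82) and *Cyth4* (0.81), and for *Slc2a3* *Vav1* (0.69), *Ptpn1* (0.63) and *Crlf2* (0.62). For *Slc2a4* they were *Jkamp* (0.74), *4933427I22Rik* (0.71) and *Mdh1* (0.69), for *Slc2a1* *Ing1* (0.64), *Slc9a3r1* (0.62) and *Nxf1* (0.62), and for *Slc2a2* *Akp3* (0.63), *9030619P08Rik* (0.6) and *Cdkn2aipnl* (0.59). For *Gckr* they were *Nol9* (0.72), *Pmf1* (0.72) and *Ndst4* (0.71), for *Hk1* *C130026I21Rik* (0.72), *Cenpn* (0.7) and *Aurka* (0.68), and for *Hk2* *Nlgn2* (0.69), *Mag* (0.67) and *Chpf* (0.66).

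Some members varied between mice together with scores of cell type markers. Each of 11 marker lists was scored in each mouse as the mean deviation of its genes from the group mean, and 528 relations over 14 mice were computed, of which 10 had a Pearson r with a Benjamini-Hochberg adjusted permutation p under 0.05. Of these 8 were *Slc2a4* in WAT. They came from 2 probe sets of 1 gene and the same 4 lists, so they are not 8 independent results. VAAM mouse 1 lay far out on all 4 scores, at 2.1 for simple epithelium, 2.13 for epididymis, -2.3 for endothelium and -2.45 for adipocytes. *Slc2a4* 1415958_at fell as the score of simple epithelium rose (r = -0.91, permutation p 3e-05, adjusted 0.00792, Spearman rho -0.8, p 0.00091, adjusted 0.105) and as the epididymis score rose (r = -0.89, permutation p 8e-05, adjusted 0.0123, rho -0.78, p 0.00148, adjusted 0.111). It rose with the endothelium score (r = 0.87, permutation p 0.00012, adjusted 0.0123, rho 0.72, p 0.00488, adjusted 0.18) and the adipocyte score (r = 0.81, permutation p 0.00023, adjusted 0.0173, rho 0.65, p 0.0142, adjusted 0.269). Without the 2 mice farthest from the median of each score, VAAM mouse 1 and water mouse 1, r was -0.84, -0.82, 0.75 and 0.65. The second *Slc2a4* probe set gave -0.87, -0.83, 0.89 and 0.79 with the same 4 lists. *Hk2* in WAT also lay lower where simple epithelium was high (r = -0.74, permutation p 0.00139, adjusted 0.0612, rho -0.89, p 7e-05, adjusted 0.037). Its r with the skeletal muscle score was 0.78, and neither relation is among the 10.

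The other 2 of the 10 relations were of the myeloid list, with 1 probe set each of *Slc2a3* in liver and *Hk1* in BAT. Liver *Slc2a3* 1437052_s_at gave r = 0.87 (permutation p 0.0001, adjusted 0.0123, rho 0.75, p 0.00281, adjusted 0.148) and 0.73 without the 2 farthest mice, while the other 3 *Slc2a3* probe sets gave 0.63, -0.19 and 0.5 (adjusted permutation p 0.226, 0.797 and 0.37). Probe set 1437052_s_at sat at a low level in liver (percentile 22.2) and also rose with the T cell list (r = 0.73, adjusted permutation p 0.0937). BAT *Hk1* 1420901_a_at gave r = 0.83 (permutation p 0.0003, adjusted 0.0198, rho 0.73, p 0.00421, adjusted 0.176) and 0.69 without them, and the other *Hk1* probe set gave 0.44 (adjusted permutation p 0.447). *Hk3* 1435490_at gave 0.75 in liver, 0.7 in WAT and 0.8 in BAT (adjusted permutation p 0.0732, 0.128 and 0.1), and the BAT value fell to 0.13 without VAAM mouse 3 and water mouse 6. To compare the groups, each list was also scored in each mouse as the mean deviation of its genes from the water mean. On this second score the myeloid list ran from -0.754 to 0.678 in water and from -0.407 to 2.23 in VAAM livers (10 of 10 genes with a higher VAAM mean, exact permutation p 0.118). In BAT it ran from -0.539 to 0.971 in water and from -0.615 to 1.99 in VAAM mice (8 of 10 genes, exact p 0.631). In WAT the endothelium score ran from -0.973 to 0.803 in water and from -3.1 to -0.0104 in VAAM mice (0 of 5 genes with a higher VAAM mean, exact p 0.0862), and that of simple epithelium from -1.05 to 1.34 and from -0.822 to 2.47 (5 of 5 genes, exact p 0.487). Of 33 such scores from the water mean, 3 differed between the groups at an exact permutation p under 0.05 and none after adjustment over the 33. They were that of adipocytes in BAT (5 of 6 genes higher in VAAM mice, mean difference 0.979 SD, exact p 0.00408, adjusted 0.135), and in liver those of skeletal muscle (1 of 7 genes higher, -0.473 SD, exact p 0.00932, adjusted 0.154) and brown adipocytes (2 of 7 genes, -0.478 SD, exact p 0.0466, adjusted 0.513). The part of these cells in the values of the members was not tested.

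**Figure D4:**
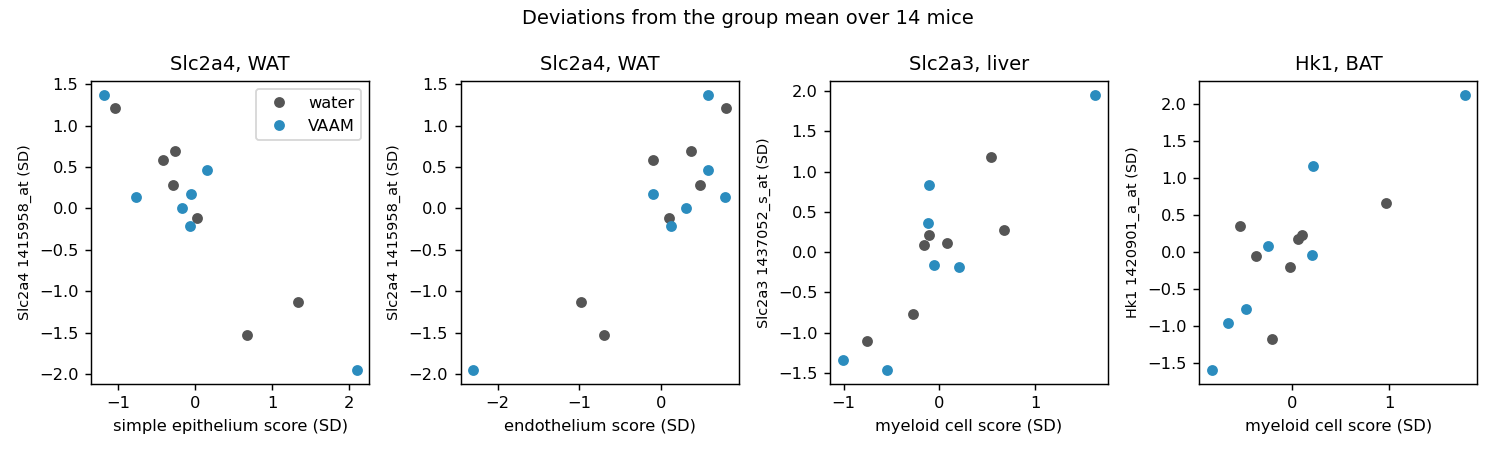
Deviation of a probe set from its group mean (vertical axis, SD) against the score of a marker list (horizontal axis, SD) in 14 mice, water in grey and VAAM in blue. *Slc2a4* in WAT falls along the simple epithelium score (r = -0.91) and rises along the endothelium score (0.87), liver *Slc2a3* rises along the myeloid score (0.87), and so does BAT *Hk1* (0.83), with single mice far out in each panel.

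Around the members, no gene of the 5 pathway lists passed limma in any tissue for VAAM against water. The count of list genes with a higher VAAM mean was 40 of 74 in liver, 33 in WAT and 36 in BAT, and 7, 4 and 4 had an unadjusted p under 0.05. These are 9.46%, 5.41% and 5.41% of the list genes, beside 9.09%, 3.76% and 5.1% of all probe sets. Rank products called 5 list genes in liver, 5 in WAT and 9 in BAT, or 6.76%, 6.76% and 12.2%, beside 3.78%, 3.28% and 4.04% of all, and 0 in each tissue after scaling to unit SD. In liver they were the transcription factors *Klf15* and *Foxo1*, higher in VAAM mice, and *Txnip*, which restrains glucose uptake, *Pgam1* of glycolysis and *Foxa2*, lower. In WAT they were *Aldoc* and *Hnf4a*, higher, and *Gys2* and *Gbe1* of glycogen synthesis and *H6pd*, lower. In BAT they were *Pfkfb3* and *Klf15*, higher, *Slc2a5*, *Pfkm*, *Pkm* and *Mlxipl*, lower, and *Pgam2*, *Eno3* and *Trim63*, which were called in both directions and are genes known from muscle. These genes are named because they were called, after their values were seen. In liver the highest were *Mef2c*, a transcription factor that acts on the *Slc2a4* promoter in muscle (1.97 ± 0.669 SD, higher than the water median in 7 of 7 VAAM mice, exact permutation p 0.00408), and *Rab10*, a GTPase of GLUT4 vesicles (1.54 ± 0.62, exact p 0.0154). Both turned negative after quantile normalization (-0.913 and -0.617). The lowest in liver were *Pgk1* of glycolysis (-1.54 ± 0.62, exact p 0.0169) and *Foxa2*, a hepatocyte transcription factor (-1.37 ± 0.603, exact p 0.0251). In WAT *Hkdc1*, a relative of the hexokinases, was highest (1.64 ± 0.631, 7 of 7 mice, exact p 0.00845), followed by *Khk* (1.14 ± 0.583, exact p 0.0577), and both turned negative after quantile normalization (-0.479 and -0.449). The lowest in WAT were enzymes of glycogen synthesis, *Gbe1* (-1.55 ± 0.621, 0 of 7 mice, exact p 0.00991) and *Ugp2* (-1.18 ± 0.587, 0 of 7 mice, exact p 0.0134), the second of which came to 0.0215 after quantile normalization. In BAT *Gfpt1*, the entry to the hexosamine pathway (1.5 ± 0.616, exact p 0.0192, -0.103 after quantile normalization), and *Pfkfb3* (1.43 ± 0.609, exact p 0.0221) were highest. *Pgk1* (-1.32 ± 0.599, 0 of 7 mice, exact p 0.00583) and *Aldoc*, an aldolase (-1.07 ± 0.577, exact p 0.0763), were lowest there. The limma adjusted p of these genes lay between 0.413 and 1. The highest and lowest genes were picked on these same values, so their exact p values and counts of mice are not a fair test.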

How the data were processed

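Liver, WAT and BAT RNA of 7 water and 7 VAAM mice was hybridised to Affymetrix mouse genome arrays. For probe set values the authors used a distribution-free weighting of probes (DFW) in R, version 2.7.2 in the submitters' notes, and the deposited values are taken here as log2, since the base is not stated. DFW shrinks differences between arrays unequally from one probe set to another, and from the array medians each tissue was taken as summarized apart. The limma test planned between tissues was therefore not made, and probe sets past 1 log2 were counted.

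Of 45101 probe sets, 64 controls were left out. Of the rest, 34945 name 1 gene, 932 several and 9160 none in GEO's platform annotation. A gene's representative, used for likeness, lists and markers, was its probe set with the highest mean over the 42 arrays. No filter on low values was applied. VAAM and water were compared within a tissue by limma 3.58.1 (R 4.3.3, Benjamini-Hochberg adjustment over all probe sets), by exact permutation over the 3432 splits of 14 mice (smallest p 0.000583), and by rank products over 49 pairs with 50 permutations (Python 3.11.15, numpy 2.4.6). The response between tissues was compared in 1 limma fit on scaled values, with the arrays of a mouse taken as independent. Marker relations used 100000 permutations of deviations from the group means. All p values are two-sided. Both genome-wide tests were tested on simulated data. The number of arrays limits the precision.

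Named genes were all members, the 2 highest and 2 lowest list genes per tissue and per tissue pair, and the 3 genes most like each member. Mouse numbers were not taken as pairs, since r of same-numbered mice ran from -0.191 to 0.478 and not every pair passed 0.1. The alternatives were a replicate block, a filter at the median, quantile normalization, weighted arrays, means over the probe sets of a gene, another prior, 1 fit over 42 arrays, rank products and leaving out each array. Added after the data were seen were leaving out the arrays that stand apart (scores past 2.2 SD on any of 3 leading components), centring of tissues and the relations to marker lists. The members and lists were chosen with earlier results of these data known.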

Additional observations from a re-analysis of the deposited data

Results flagged for a closer look

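Of 96 groups of 7 mice (16 probe sets, 3 tissues and 2 treatments), 7 values lay so far from the nearest other mouse of their group that the gap passed Dixon's 95% limit. Chance gives about 1 such value in 20 groups. In WAT, VAAM mouse 7 was low in *Slc2a1* 1434773_a_at (-2.58 SD from the water mean) and 1426599_a_at (-2.49). Also in WAT, water mouse 2 was high in *Hk1* 1437974_a_at (2.08). In BAT, water mouse 6 was low in *Slc2a4* 1415959_at (-2.46). VAAM mouse 3, one of the BAT arrays that stand apart, was high in both *Hk3* probe sets (3.16 in 1435490_at and 3.35 in 1442798_x_at), and water mouse 6 was high in the second of them (1.21).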

How the results depend on the processing

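No member probe set was called under any alternative. Over all probe sets, the count of calls for VAAM against water, 0 in each tissue, became 1 in liver with the replicate number as a block or after quantile normalization. It was 691 in liver, 129 in WAT and 315 in BAT in 1 fit over the 42 arrays, 1704, 1478 and 1818 by rank products, and 298, 61 and 105 by rank products after scaling each probe set to unit SD. Leaving out 1 array gave 0 to 5 calls in liver (5 without water mouse 2 and 1 without VAAM mouse 5) and 0 in WAT and BAT. For the response between tissues, calls in liver minus WAT went from 112 to 36 unscaled and to 239 with treatment and mouse number as a block across tissues. They went from 69 to 28 and 128 in liver minus BAT, and from 9 to 3 and 19 in BAT minus WAT. The block of mouse number planned for levels between tissues was not run because no test was made there. Neither the replicate block within a tissue nor the block across tissues changed a member call. As a hint from the data alone, 2 of 14 liver arrays, 5 of 14 in WAT and 5 of 14 in BAT correlated best, among mice of the other group, with the mouse of their own number. Of the highest and lowest list genes of each tissue, rank products called *Foxa2* in liver, *Gbe1* in WAT and *Pfkfb3* in BAT, and the fit over 42 arrays called *Foxa2*. The cause of these differences was not tested.

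Quantile normalization left *Slc2a2* without spread in liver and so gave no value there. After it these values changed sign (SD, for the representative probe set of a gene unless another is given). In liver they were *Slc2a1* -0.166 (from 0.296), *Slc2a3* -0.122 (from 0.174), *Slc2a4* 1415959_at 0.1 (from -0.239), *Hk1* -0.543 (from 0.809), *Mef2c* -0.913 (from 1.97) and *Rab10* -0.617 (from 1.54). In WAT they were *Slc2a1* -0.453 (from 0.212), *Slc2a1* 1426600_at -0.55 (from 0.607), *Slc2a1* 1426599_a_at -0.505 (from 0.469), *Slc2a2* -0.58 (from 0.647), *Gckr* -0.539 (from 0.3), *Hk2* -0.265 (from 0.018), *Hk3* -0.572 (from 0.406), *Hkdc1* -0.479 (from 1.64), *Khk* -0.449 (from 1.14) and *Ugp2* 0.0215 (from -1.18). In BAT they were *Slc2a1* -0.153 (from 0.601), *Slc2a1* 1426600_at -0.159 (from 0.271), *Slc2a2* -0.461 (from 0.198), *Slc2a3* -0.139 (from 0.0951), *Gckr* 0.0118 (from -0.335), *Hk3* -0.416 (from 0.433) and *Gfpt1* -0.103 (from 1.5). The cause was not tested.

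With array weights, the sign turned for *Hk2*, liver (0.0934 to -0.0223), *Hk2*, WAT (0.018 to -0.202), *Slc2a3*, BAT (0.0951 to -0.055). Without the arrays that stand apart, the sign turned for *Hk2*, liver (0.0934 to -0.0153), *Hk3* 1442798_x_at, WAT (-0.234 to 0.0978), *Slc2a2*, BAT (0.198 to -0.164), *Slc2a3*, BAT (0.0951 to -0.33), *Slc2a4* 1415959_at, BAT (-0.215 to 0.104), *Hk3*, BAT (0.433 to -0.336). With gene means, the sign turned for *Hk3*, WAT (0.406 to -0.206). Leaving out 1 array turned the sign of values near 0, which ranged from -0.328 to 0.246 for *Slc2a1* 1426599_a_at, liver, from -0.184 to 0.45 for *Slc2a3*, liver, from -0.216 to 0.495 for *Slc2a3* 1455898_x_at, liver, from -0.566 to 0.168 for *Slc2a4*, liver, from -0.359 to 0.356 for *Hk2*, liver, from -0.512 to 0.0992 for *Hk3* 1442798_x_at, liver, from -0.211 to 0.297 for *Hk2*, WAT, from -0.42 to 0.0978 for *Hk3* 1442798_x_at, WAT, from -0.0675 to 0.595 for *Slc2a1* 1426600_at, BAT, from -0.0793 to 0.565 for *Slc2a2*, BAT, from -0.105 to 0.458 for *Slc2a3*, BAT, from -0.254 to 0.261 for *Slc2a3* 1427770_a_at, BAT, from -0.0535 to 0.631 for *Hk2*, BAT, from -0.0395 to 0.63 for *Hk3*, BAT. Counts of member probe sets past 1 log2 between tissues did not change when an array was left out.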
